A study of Mus musculus with 2 samples.

Results

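Transcripts of 8 genes of the bone morphogenetic protein (BMP) pathway and its Id targets were examined in single MC38 tumour cells kept with a PD-1 blocking antibody or with a control antibody. The genes were Bmp4, Bmpr1a, Bmpr2, Smad6, Bambi, Id1, Id2 and Id3, which are 8 of the 28692 genes listed in both count matrices. They were picked by symbol with earlier results of the same libraries known, so their library differences are a description and carry no test.

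BMPs are secreted ligands that bring together a type I receptor such as BMPR1A and the type II receptor BMPR2, which phosphorylate SMAD1, SMAD5 and SMAD9. These partner with SMAD4 and switch on the Id genes, whose products lack a DNA-binding region and hold back the E proteins, transcription factors that favour differentiation and cell cycle exit. SMAD6, an inhibitory SMAD, and BAMBI, a receptor-like protein with no kinase domain, are induced by the pathway and dampen it.

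MC38 is a colon carcinoma line of C57BL/6 mice, here grown as tumours in the albino strain. The tumours were taken apart, and spheroids of 40 to 100 µm were kept in collagen of 2.8 mg/mL inside a microfluidic chip. One library came from cultures with aPD-1 (clone RMP1-14, 10 µg/mL) and the other from cultures with IgG (clone 2A3, 10 µg/mL), each for 6 days and then freed with collagenase for 15 minutes and trypsin for 5 minutes. Tumour cells were sorted and loaded on a 10x Chromium 3′ kit, and the series sets out to describe those left after PD-1 blockade. Neither the sort markers nor the number of mice or chips behind a library is stated in the labels. With 1 library for each antibody, antibody cannot be told apart from sorting, loading or sequencing. Every interval below is a 95% interval that covers counting error only.

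Cells of at least 5000 unique molecular identifiers (UMIs, each a counted transcript) and at most 10% mitochondrial UMIs numbered 3356 with aPD-1, holding 61462778 UMIs, and 2198 with IgG, holding 49422640 UMIs. Their median depth was 16577 UMIs with aPD-1 and 20663 UMIs with IgG, and 8 cell barcodes occurred in both libraries. Epithelial markers of a carcinoma were close to 0, with 14 UMIs over 11 genes in aPD-1 cells and 31 in IgG cells, and 5 of the 11 at 0 in both libraries, Krt18 among them. Most fibroblast markers were expressed, at a summed 886 CPM (a gene's share of all UMIs of the library's cells, scaled to 1000000) with aPD-1 and 1253 CPM with IgG, so the name tumour cells rests on the sort. Of the 10 fibroblast markers 8 reached a mean of 10 CPM. The others were Col1a2, with 105 UMIs with aPD-1 and 104 UMIs with IgG, and Thy1, with 1 UMI with aPD-1 and 0 UMIs with IgG. T and NK cell markers summed to 0.993 CPM with aPD-1 and 1.03 CPM with IgG.

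Only part of the pathway was transcribed in these cells. A pair of receptors, both inhibitors and 3 Id genes had UMIs in both libraries, whereas Bmp4 was confined to a few cells that carried endothelial markers. Id1, Id2 and Id3 stood at lower levels with aPD-1 than with IgG, together at 117.8 CPM against 231.4 CPM (ratio 0.509, interval 0.494 to 0.524), while Bmpr1a and Bmpr2 stood within 1.5-fold.

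BMP-activated SMADs are known to bind the promoters of Id genes at GC-rich letters such as GGCGCC and at CAGAC, in part further upstream than the stretches at hand. RefSeq start sites on GRCm38.p6 were at hand for 6 of the 8 genes, without Id1 and Bambi. In the 250 bases before the start, GGCGCC occurred once in Id2, Bmpr1a and Bmpr2 and not in Id3, Smad6 or Bmp4, and 9.54% of 27025 such stretches in the mouse genome hold it. CAGAC or its reverse GTCTG occurred 2 times in Id3 and in none of the other 5, beside 42.1% of all stretches. The palindrome GTCTAGAC occurred in none of the 6 and in 0.174% of all. No 2 of these matches overlapped. Each match is a run of letters and not a shown binding site. The GENCODE models of Id2 and Id3 begin further upstream, so that all of the Id3 stretch and 161 of the 250 Id2 bases lie in an annotated 5′ untranslated region. All of the Bmpr2 stretch, its match included, and 141 of the 250 Bmpr1a bases also lie in an annotated untranslated region. The 89 Id2 bases outside the untranslated region also lie inside the GENCODE gene of Id2 (chr12:25093799-25097140), and not upstream of it. Printed here, as the letters matched near the start sites of 2 Id genes, are these 89 bases of Id2 (chr12:25096254-25096342, minus strand) and 25 bases around each Id3 match (chr4:136143645-136143669 and chr4:136143744-136143768, plus strand), 5′ to 3′ with the matches in capitals.
Id2: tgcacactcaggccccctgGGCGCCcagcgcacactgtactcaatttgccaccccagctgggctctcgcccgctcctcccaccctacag
Id3, first match: tcctcggcgtCAGACcagcctaagg
Id3, second match: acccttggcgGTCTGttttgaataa
The Id2 match starts 231 bases before the RefSeq start, and the Id3 matches start 167 and 68 bases before it.

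The ligand Bmp4 (chr14:46383520-46390669, minus strand; all gene positions are of GENCODE M21 on GRCm38, and all 8 genes are protein-coding) had 1 UMI in the aPD-1 library and 6 UMIs in the IgG library. All 7 lay in a cluster of 4 aPD-1 and 23 IgG cells that was endothelial-like, with all 10 endothelial markers detected and Emcn and Esam among its top genes. Outside it Bmp4 had 0 UMIs in both libraries, which allows up to 0.0489 CPM in aPD-1 cells and 0.0611 CPM in IgG cells (3 counts of the total). Of 12 BMP and GDF ligand genes that act through these receptors, Bmp2 alone reached a mean of 10 CPM over the libraries, the level from which folds were counted. Bmp2 was at 12.0 CPM with aPD-1 and 11.2 CPM with IgG (ratio 1.07, interval 0.957 to 1.197). Gdf5, a ligand of joint development, had 7 UMIs with aPD-1 and 14 UMIs with IgG, and each ligand other than Bmp2, Bmp4 and Gdf5 had at most 3 UMIs in a library. Transcripts of these 12 ligand genes in the sorted cells were thus nearly all of Bmp2. Ligand genes outside the list were not counted, and what other cells in the chip made was not measured.

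Bmpr1a (chr14:34410734-34503341, minus strand), a type I receptor, had 1467 UMIs or 23.9 CPM with aPD-1 and 1161 UMIs or 23.5 CPM with IgG. Its ratio of aPD-1 over IgG was 1.02 (interval 0.940 to 1.098), an interval that holds 1. Bmpr2 (chr1:59763400-59879014, plus strand), the type II receptor, had 1316 UMIs or 21.4 CPM with aPD-1 and 1210 UMIs or 24.5 CPM with IgG. Its ratio was 0.875 (interval 0.808 to 0.946), close to 0.932, the median ratio over the 6967 genes of at least 10 CPM, of which 67.1% had a ratio under 1. On the log2 scale that median is -0.10, and the central 95% of those genes ran from 0.655 to 1.29.

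Of 12 listed receptors and co-receptors 11 were found in the matrices, 4 reached 10 CPM and none of the 4 was past 1.5-fold. Among all 6967 genes 3.01% were 1.5-fold lower and 0.531% higher. Acvr1, another type I receptor, was at 17.2 CPM with aPD-1 and 18.4 CPM with IgG (ratio 0.933, interval 0.853 to 1.02). Eng, an endothelial co-receptor also made by mesenchymal cells, was at 10.1 CPM with aPD-1 and 14.9 CPM with IgG (ratio 0.681, interval 0.611 to 0.759). Without the endothelial-like cells the Eng ratio was 0.854 (interval 0.758 to 0.961). Acvrl1, the type I receptor of endothelium, had 310 UMIs with aPD-1 and 421 UMIs with IgG, of which the endothelial-like cells held 5 UMIs with aPD-1 and 32 UMIs with IgG. The type I receptor Bmpr1b had 0 UMIs with aPD-1 and 1 UMI with IgG.

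Smad6 (chr9:63953076-64022059, minus strand) was near the limit of detection, at 12 UMIs with aPD-1 and 11 UMIs with IgG (ratio 0.877, interval 0.354 to 2.19). The other inhibitory SMAD, Smad7, which also answers to TGF-beta, was at 126.2 CPM with aPD-1 and 109.7 CPM with IgG (ratio 1.15, interval 1.11 to 1.19). Bambi (chr18:3507923-3516404, plus strand) had 535 UMIs or 8.70 CPM with aPD-1 and 548 UMIs or 11.1 CPM with IgG (ratio 0.785, interval 0.696 to 0.886). Its mean of 9.90 CPM fell just under the 10 CPM floor, and Bmpr2, at a mean of 22.95 CPM, was the lowest of the 8 genes above it. Without the endothelial-like cells, where Bambi had 9 UMIs with aPD-1 and 40 UMIs with IgG, its ratio was 0.828 (interval 0.732 to 0.937).

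The signal-carrying SMADs and their modifiers stood close together in the 2 libraries. Of 13 listed, 10 reached 10 CPM, none was past 1.5-fold, and their median log2 ratio was 0.07 beside -0.10 over all genes. Past 1.5-fold were 3.01% of all 6967 genes in the lower direction and 0.531% in the higher. Smad1, which BMP receptors phosphorylate, was at 35.9 CPM with aPD-1 and 32.3 CPM with IgG (ratio 1.11, interval 1.04 to 1.19). Smurf1, a ubiquitin ligase that marks SMAD1 and SMAD5 for breakdown, was at 32.2 CPM with aPD-1 and 29.0 CPM with IgG (ratio 1.11, interval 1.04 to 1.19). The lowest of the 10 was Tob1, an antiproliferative protein that binds BMP SMADs, at 11.2 CPM with aPD-1 and 15.2 CPM with IgG (ratio 0.735, interval 0.662 to 0.816).

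**Figure D1:**
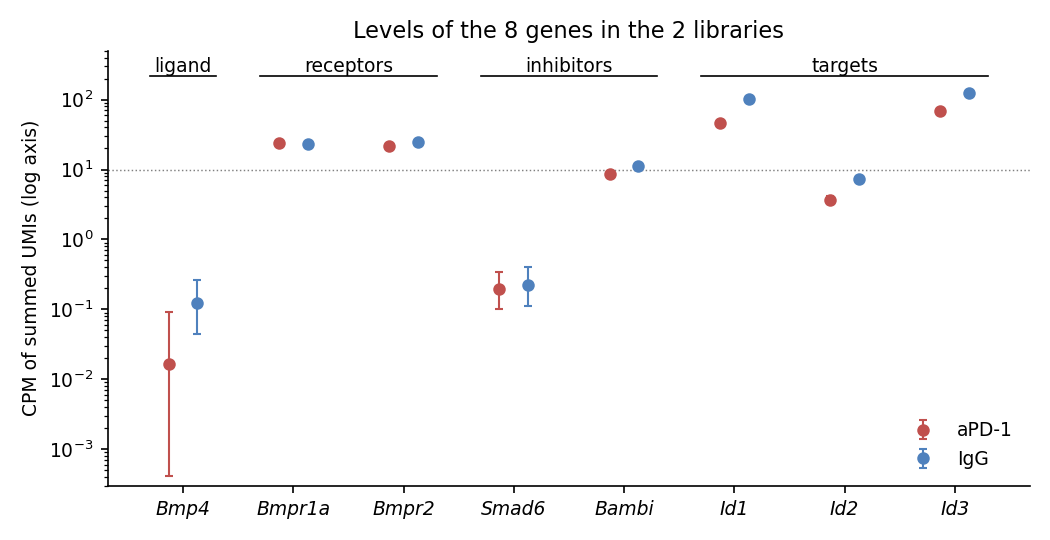
CPM of summed UMIs of each gene (log axis) in aPD-1 cells (red) and IgG cells (blue), with exact Poisson 95% intervals, 1 library each; the dotted line is 10 CPM. Id1, Id2 and Id3 lie lower with aPD-1, at ratios of 0.456, 0.495 and 0.553, Bmpr1a and Bmpr2 lie within 1.5-fold, and the intervals of Bmp4 and Smad6 overlap between the libraries.

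Id1 (chr2:152736251-152737410, plus strand) had 2827 UMIs or 46.0 CPM with aPD-1 (interval 44.3 to 47.7) and 4981 UMIs or 100.8 CPM with IgG (interval 98.0 to 103.6). The ratio was 0.456 (interval 0.436 to 0.478). It ranked 16 from the lowest among the 6967 genes. Id3 (chr4:136143497-136145755, plus strand) had 4188 UMIs or 68.1 CPM with aPD-1 (interval 66.1 to 70.2) and 6091 UMIs or 123.2 CPM with IgG (interval 120.2 to 126.4), a ratio of 0.553 (interval 0.531 to 0.575). Id2 (chr12:25093799-25097140, minus strand) was sparse, at 223 UMIs or 3.63 CPM with aPD-1 and 362 UMIs or 7.33 CPM with IgG, a ratio of 0.495 (interval 0.417 to 0.587). Id4, the last member of the family, had 0 UMIs in both libraries.

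Of the 8 genes 4 reached 10 CPM, of which 2 (Id1 and Id3) were at least 1.5-fold lower with aPD-1 and 0 were 1.5-fold higher. Over all 6967 genes 3.01% were 1.5-fold lower and 0.531% higher, and since the members were chosen with this contrast known, nothing is read from the count. From a floor of 5 CPM, which also lets in Id2 and Bambi, 3 were lower and 0 higher, beside 3.59% and 0.754% of 8754 genes.

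Other listed BMP targets did not share one direction. Of 17 targets, members included, 6 reached 10 CPM, and 3 of them were 1.5-fold lower (Hes1, Id1 and Id3) and none higher. Apart from the members Id1 and Id3, Hes1 alone of these was past 1.5-fold. Among all 6967 genes 3.01% were 1.5-fold lower and 0.531% higher. The target list holds members and was chosen with this contrast known, so nothing is read from its count. Smad7 was at a ratio of 1.15, and Msx1, a homeobox gene, at 0.871 (interval 0.780 to 0.973). Hes1, a repressor best known as a Notch target, was at 38.4 CPM with aPD-1 and 134.1 CPM with IgG (ratio 0.286, interval 0.273 to 0.300). Runx2, a bone transcription factor, was at 25.1 CPM with aPD-1 and 19.5 CPM with IgG (ratio 1.29, interval 1.19 to 1.40). Hey1, related to Hes1, had 66 UMIs with aPD-1 and 126 UMIs with IgG, and Atoh8, a BMP9 target of endothelium, 1 UMI with aPD-1 and 7 UMIs with IgG. Msx2, Dlx5 and Nog had 0 UMIs in both libraries.

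Of 14 secreted antagonists 4 reached 10 CPM and 1 was past 1.5-fold, in the lower direction. Among all 6967 genes 3.01% were 1.5-fold lower and 0.531% higher, and nothing is read from the antagonist count. Htra1, a secreted protease that inhibits TGF-beta family signals, was at 102.5 CPM with aPD-1 and 162.6 CPM with IgG (ratio 0.630, interval 0.610 to 0.652). Fstl1, a follistatin-like glycoprotein, was at 76.0 CPM with aPD-1 and 90.9 CPM with IgG (ratio 0.836, interval 0.802 to 0.871). Twsg1, which modulates BMP binding to chordin, and Fstl3, which binds activins, had ratios of 1.03 and 1.13. Grem1, a BMP-binding antagonist, had 817 UMIs with aPD-1 and 261 UMIs with IgG. Its mean of 9.29 CPM is under the 10 CPM floor, and it was singled out after its values were seen: 13.3 CPM with aPD-1 and 5.28 CPM with IgG, a ratio of 2.52 (interval 2.19 to 2.91), with ratios from 1.36 to 3.35 in the 6 clusters described below. The highest of these, in cluster 4, rests on 10 UMIs with aPD-1 and 5 UMIs with IgG (interval 1.04 to 12.5). The lowest, in cluster 5, has an interval that holds 1 (0.977 to 1.88). Grem1 was thus the one antagonist with more than a few UMIs that stood higher with aPD-1 by over 1.5-fold.

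The partners of the Id proteins stood close to the median of all genes. Tcf3, Tcf12 and Tcf4, which encode the E proteins that Id proteins hold, had ratios of 0.990, 0.958 and 0.864, and all 3 were within 1.5-fold. Of the cyclin kinase inhibitors that E proteins can switch on, Cdkn1a was at 85.3 CPM with aPD-1 and 55.4 CPM with IgG (ratio 1.54, interval 1.47 to 1.61), an interval that reaches below 1.5-fold, and Cdkn1a is also a p53 target. Cdkn2a and Cdkn2b had ratios of 0.899 and 0.961. Over the whole list of 70 genes, 69 were found and 30 reached 10 CPM, of which 4 (13.3%) were 1.5-fold lower and 1 (3.33%) higher, beside 3.01% lower and 0.531% higher over all genes. The median log2 ratio of the 30 was -0.04, beside -0.10 over all genes. The list holds the members and was chosen with this contrast known, so nothing is read from these counts.

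**Figure D2:**
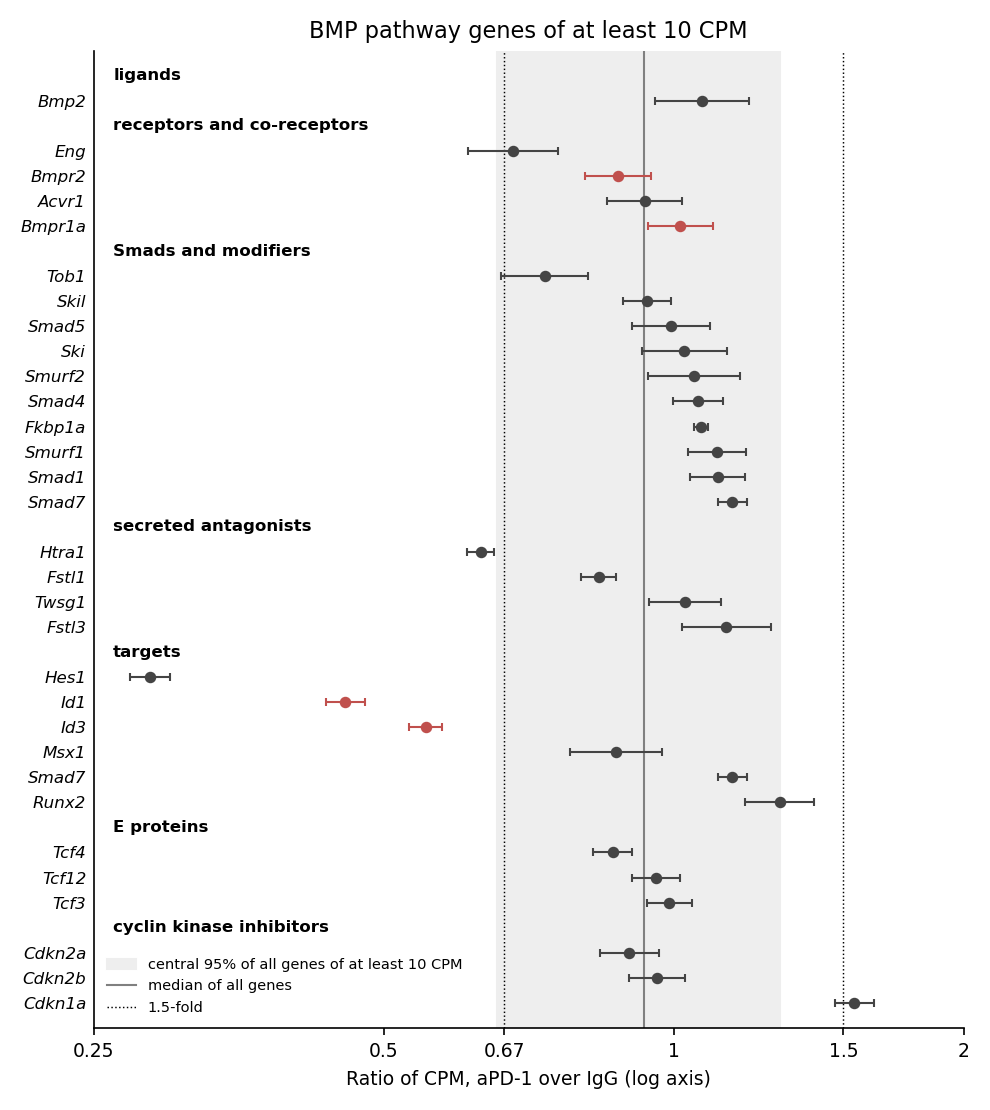
Ratio of CPM, aPD-1 over IgG (log axis), of the BMP pathway genes of at least 10 CPM, with exact conditional binomial 95% intervals, grouped by role, with genes of the 8 in red; the grey line is the median of all genes (0.932), the band their central 95% (0.655 to 1.29) and the dotted lines 1.5-fold. Hes1 (0.286), Id1 (0.456), Id3 (0.553) and Htra1 (0.630) lie left of the band, Cdkn1a (1.54) right of it, and the SMADs and receptors inside it.

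The Id genes varied between cell states in both libraries. Cells of both libraries were clustered together without the pathway genes, and 6 clusters held at least 50 cells of each library. They are called by their leading genes: cluster 0 (Apoe, Rac2; 931 aPD-1 and 602 IgG cells), cluster 1 (Hist1h1b, Il1rl1; 1134 aPD-1 and 360 IgG cells), cluster 2 (the hypoxia genes Car9 and Ero1l; 506 aPD-1 and 164 IgG cells), cluster 3 (Lbp, Gsn, Dpt; 225 aPD-1 and 423 IgG cells), cluster 4 (the mitosis genes Cdc20 and Cenpe; 240 aPD-1 and 302 IgG cells) and cluster 5 (the S phase genes Rrm2 and Tyms; 249 aPD-1 and 268 IgG cells). The libraries thus filled the clusters unequally, with most of the Hist1h1b and hypoxia clusters from aPD-1 cells.

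Among the 6 clusters Id1 was highest in cluster 0 in both libraries, at 89.6 CPM with aPD-1 and 188.1 CPM with IgG. Next came clusters 3 and 4, at 59.9 and 54.4 CPM with aPD-1, whose intervals overlapped, and at 90.4 and 105.5 CPM with IgG, whose intervals did not. With aPD-1 clusters 1, 2 and 5 followed at 31.0, 26.6 and 24.8 CPM. The intervals of neighbours in that order overlapped, while those of clusters 1 and 5 did not (28.8 to 33.3 CPM and 21.4 to 28.6 CPM). With IgG they were at 67.9, 66.9 and 50.8 CPM, of which cluster 5 lay apart from both. Id1 was at least 1.5-fold lower with aPD-1 within each of the 6 clusters, at ratios of 0.397 to 0.662, and 0.301% of the 6967 genes met the same condition. That did not hold in every cluster under the other clusterings. Id1 was 1.5-fold lower in 8 of 9 clusters at a finer resolution (highest ratio 0.803) and in 5 of 6 with the pathway genes let in (highest 0.777), and it stayed under 1 in each.

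Id3 followed a like order, with cluster 0 at 150.4 CPM with aPD-1 and 210.6 CPM with IgG, and cluster 5 lowest at 17.0 CPM with aPD-1 and 41.9 CPM with IgG. In the mitosis cluster Id3 was at 133.0 CPM with aPD-1 and 170.8 CPM with IgG, and in cluster 3 at 109.3 CPM with aPD-1 and 127.4 CPM with IgG. Its ratio was under 1 in 6 of 6 clusters, as for 17.2% of the 6967 genes, from 0.405 in cluster 5 to 0.858 in cluster 3, and at least 1.5-fold lower in 3 of them (clusters 1, 2 and 5). At the finer resolution Id3 was under 1 in 8 of 9 clusters, and with the pathway genes let in, in 5 of 6. Id2 was under 1 in 6 of 6 clusters, on 9 to 114 UMIs a library in each. Its ratio interval held 1 in clusters 2, 3, 4 and 5. At a mean of 5.48 CPM Id2 is outside the genes that the 17.2% covers, so nothing is read from its count of clusters. Under the other clusterings Id2 was under 1 in 7 of 9 clusters at the finer resolution (highest ratio 1.46). With the pathway genes let in it was under 1 in 5 of 6 (highest 1.155).

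A smaller cluster led by the interferon-induced genes Mx1 and Oasl1 (61 aPD-1 and 39 IgG cells) went apart for Id1, which was at 56.8 CPM on 64 UMIs with aPD-1 (interval 43.8 to 72.6) and 42.9 CPM on 31 UMIs with IgG (interval 29.1 to 60.8). The ratio of 1.33 has an interval of 0.851 to 2.11, so no difference was detectable there at this depth. Id3 in the same cells was at 101.2 CPM on 114 UMIs with aPD-1 (interval 83.5 to 121.6) and 254.4 CPM on 184 UMIs with IgG (interval 218.9 to 293.9), a ratio of 0.398 (interval 0.312 to 0.505). The cluster holds under 50 IgG cells and stays out of the counts of clusters given above.

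The receptor ratios lay closer to 1 within the clusters. Bmpr1a lay between 17.9 and 28.5 CPM with aPD-1 and between 18.0 and 27.7 CPM with IgG over the 6 clusters, with ratios of 0.822 to 1.19, under 1 in 3 of 6. Bmpr2 was highest in cluster 0, at 31.4 CPM with aPD-1 and 32.0 CPM with IgG, and lowest in cluster 5, at 12.4 CPM with aPD-1 and 15.96 CPM with IgG, with ratios of 0.722 to 1.03. Bambi had ratios of 0.652 to 1.26.

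**Figure D3:**
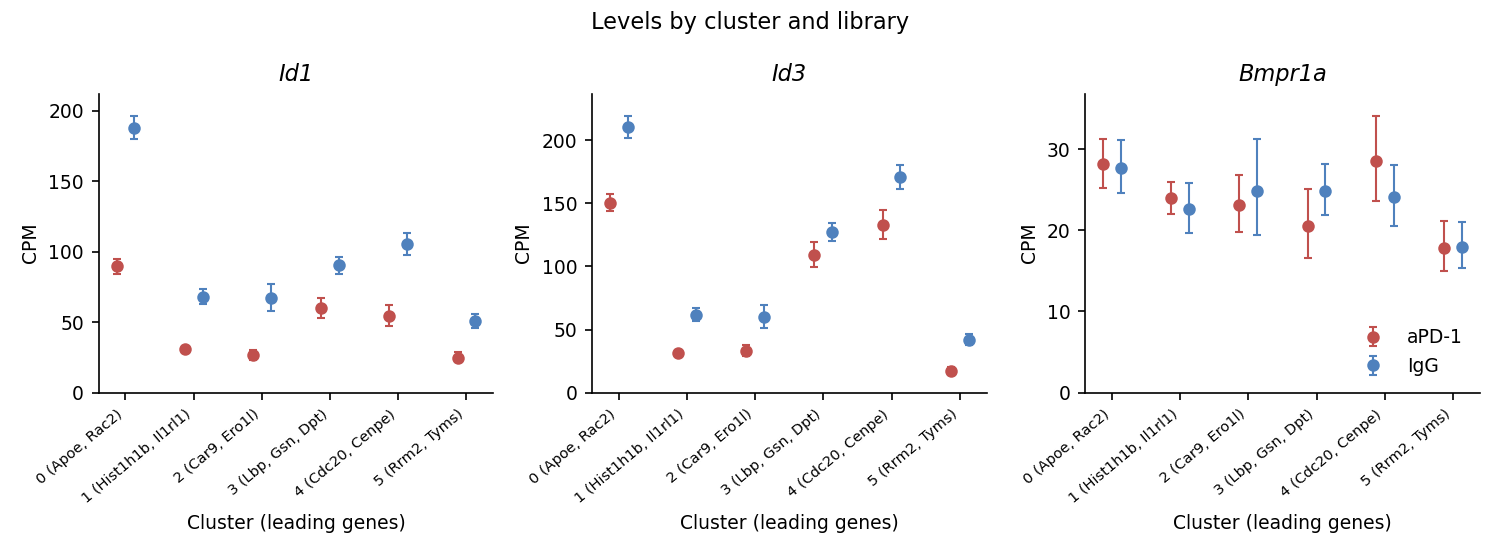
CPM of Id1, Id3 and Bmpr1a in the 6 clusters with at least 50 cells of each library, aPD-1 (red) left of IgG (blue), with exact Poisson 95% intervals. Id1 and Id3 are lower with aPD-1 in all 6 and highest of the 6 in cluster 0 (Id1 89.6 CPM with aPD-1, 188.1 CPM with IgG), while the intervals of Bmpr1a overlap between the libraries in each cluster.

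Of all clusters the endothelial-like one had the highest levels of Id1 and Id3 in both libraries. Endothelium is a cell type in which BMP9 and BMP10 are known to drive Id1. There Id1 was at 241.8 CPM on 12 UMIs with aPD-1 (interval 124.9 to 422.3) and at 345.0 CPM on 108 UMIs with IgG (interval 283.0 to 416.6). Id3 was at 282.0 CPM on 14 UMIs with aPD-1 (interval 154.2 to 473.2) and at 549.5 CPM on 172 UMIs with IgG (interval 470.5 to 638.1). Bambi was at 181.3 CPM with aPD-1 and 127.8 CPM with IgG, and Bmpr2 at 100.7 CPM on 5 UMIs with aPD-1 and 102.2 CPM on 32 UMIs with IgG. The CPM intervals of the libraries overlapped for each of these genes, with 4 aPD-1 cells in the cluster. For Id3 the overlap was slight, and the interval of its ratio lay below 1 (ratio 0.513, interval 0.275 to 0.885). The ratio intervals of Id1, Bambi and Bmpr2 held 1. Endothelial markers summed to 20.7 CPM in the aPD-1 library and 58.6 CPM in the IgG library, with none of the 10 at 0. Without this cluster the ratios were 0.462 for Id1, 0.497 for Id2 and 0.564 for Id3, nearly as with it.

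Macrophage markers also differed, at a summed 5.42 CPM with aPD-1, where Adgre1 was at 0, and 30.9 CPM with IgG. In the 8 IgG cells with UMIs of at least 3 macrophage markers, Id2 was at 142.6 CPM on 23 of the 362 IgG UMIs of Id2 and Id1 at 111.6 CPM on 18 of 4981, while the 3 such aPD-1 cells held 0 Id2 UMIs and 1 Id1 UMI. Without cells that held 3 endothelial or 3 macrophage markers the ratios were 0.463 for Id1, 0.530 for Id2 and 0.565 for Id3.

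At the other end was a cluster of 6 aPD-1 and 17 IgG cells led by Fam132a and Plac8 and left unnamed. It held no Id2 or Bambi UMI. Id1 and Id3 each had 0 UMIs in its aPD-1 cells and 1 UMI in its IgG cells, while Bmpr1a had 1 UMI in aPD-1 cells and 2 UMIs in IgG cells. Its median depth was 11370 UMIs with aPD-1 and 10723 UMIs with IgG. Its immediate early genes, described below, summed to 438.8 CPM over both libraries, beside 5800 CPM or more in each other cluster. No cell type known to lack Id transcripts was found, so the values of this cluster are set beside the shares of cells that follow. The cluster was picked for its low Id counts in these same data, so it is no independent reference.

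Each cell was thinned to 5000 UMIs to compare shares of cells with a UMI, which left out no cell. Id1 was then found in 16.3% of aPD-1 cells (exact interval 15.0 to 17.6%) and 27.8% of IgG cells (25.9 to 29.7%). Unthinned the shares were 32.2% with aPD-1 and 53.2% with IgG, beside 0 of 6 aPD-1 cells (exact upper bound 45.9%) and 1 of 17 IgG cells (5.88%, upper bound 28.7%) of the Fam132a cluster. Id3 was found in 19.5% of aPD-1 cells (18.2 to 20.9%) and 31.5% of IgG cells (29.5 to 33.5%), and Id2 in 1.73% of aPD-1 cells (1.32 to 2.23%) and 3.55% of IgG cells (2.82 to 4.41%). Unthinned, Id3 was found in 35.5% of aPD-1 cells and 55.0% of IgG cells, beside 0 of 6 aPD-1 cells (upper bound 45.9%) and 1 of 17 IgG cells (upper bound 28.7%) of the Fam132a cluster. Id2 was found unthinned in 4.98% of aPD-1 cells and 10.7% of IgG cells, beside 0 of 6 aPD-1 cells and 0 of 17 IgG cells (upper bound 19.5%), and the bound in each library lies above its Id2 share. Cells with an Id1 UMI held 1.69 of them on average with aPD-1 and 2.06 with IgG, so both fewer cells with a UMI and fewer UMIs in each lay behind the lower sum.

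Bmpr1a was found in 11.6% of aPD-1 cells (10.5 to 12.7%) and 10.9% of IgG cells (9.65 to 12.3%), and unthinned in 34.1% of aPD-1 cells and 39.5% of IgG cells. In the Fam132a cluster Bmpr1a had a UMI in 1 of 6 aPD-1 cells (16.7%, upper bound 64.1%) and 2 of 17 IgG cells (11.8%, upper bound 36.4%). Bmpr2 was found in 10.3% of aPD-1 cells (9.27 to 11.4%) and 12.7% of IgG cells (11.4 to 14.2%), and Bambi in 4.05% of aPD-1 cells (3.41 to 4.78%) and 5.37% of IgG cells (4.46 to 6.40%). Unthinned, Bmpr2 was found in 30.7% of aPD-1 cells and 39.8% of IgG cells, and Bambi in 12.4% of aPD-1 cells and 16.9% of IgG cells. In the Fam132a cluster Bmpr2 had a UMI in 1 of 6 aPD-1 cells (16.7%) and 1 of 17 IgG cells (5.88%), and Bambi in 0 of 6 aPD-1 cells and 0 of 17 IgG cells. With 6 aPD-1 cells in that cluster, no aPD-1 share of any of these genes lies above its upper bound there. The receptors and Bambi were spread thinly, mostly as 1 UMI a cell at this depth. Smad6 had a UMI in 12 aPD-1 cells (0.358%) and 10 IgG cells (0.455%) unthinned, and Bmp4 in 1 aPD-1 cell and 4 IgG cells.

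Some cells held many Id1 or Id3 UMIs. After thinning, 6 or more Id1 UMIs were found in 0.387% of aPD-1 cells and 1.55% of IgG cells, and up to 17 in a cell with aPD-1 and 16 with IgG. For Id3 the highest was 19 UMIs in a cell with aPD-1 and 18 with IgG. For Bmpr1a 3 UMIs was the highest in a cell with aPD-1 and 2 with IgG.

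**Figure D4:**
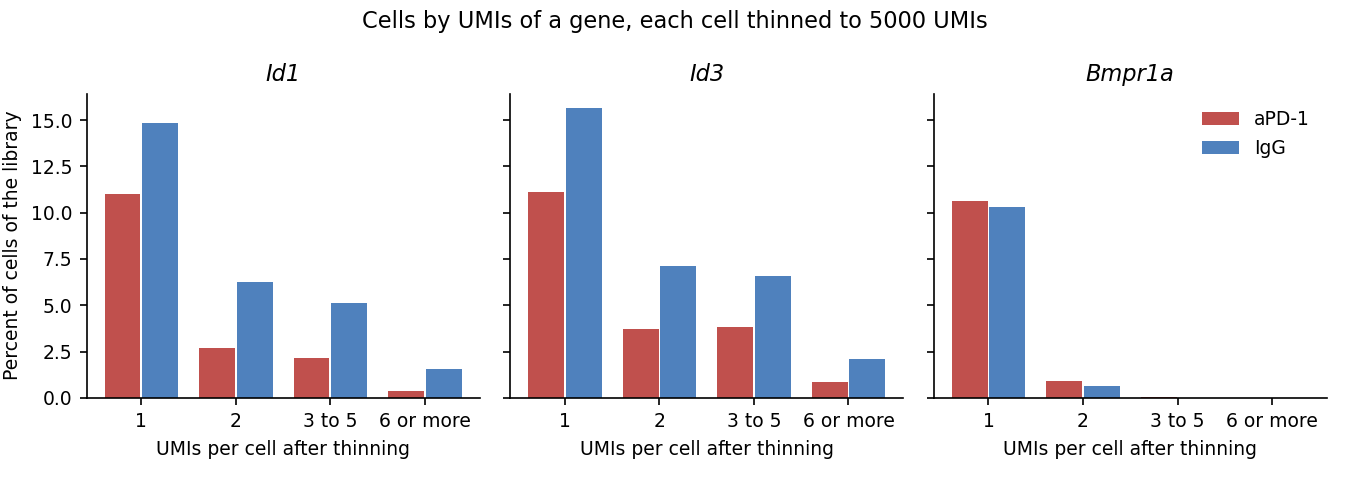
Percent of cells with 1, 2, 3 to 5 or at least 6 UMIs of Id1, Id3 and Bmpr1a after each cell was thinned to 5000 UMIs, aPD-1 (red, 3356 cells) left of IgG (blue, 2198 cells). For Id1 and Id3 every class is smaller with aPD-1, down to 0.387% against 1.55% of cells with 6 or more Id1 UMIs, and Bmpr1a is mostly single UMIs in both libraries.

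Id1 and Id3 were found together in single cells. Across the cells of each library, on log2(UMIs per 10000 + 1), Pearson's r between Id1 and Id3 was 0.37 over 3356 aPD-1 cells and 0.50 over 2198 IgG cells. With each cell thinned to 5000 UMIs it was 0.25 with aPD-1 and 0.36 with IgG, and with each cluster's mean taken off 0.33 with aPD-1 and 0.47 with IgG. Both were found in 6.17% of thinned aPD-1 cells and 14.1% of thinned IgG cells, where the product of their shares was 3.18% with aPD-1 and 8.74% with IgG. Cells of a library share their source and depth, so these values describe the libraries and carry no test.

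Id1 with Id2 gave 0.11 in aPD-1 cells and 0.12 in IgG cells. Bmpr1a and Bmpr2 reached at most 0.06 with Id1 or Id3 in either library, on sparse counts, from which nothing is read. Among 2450 genes of at least 50 CPM, the 10 most like Id1 in both libraries, ranked by the lower of their 2 values of r, included Id3, Fos, Junb, Dusp1, Ier2, Egr1, Rgs3, Fosb and Smad7. Of the 10, 6 are immediate early genes on the list used here, which holds 19 genes in all. That list was chosen with earlier results of these data known, so nothing is read from the count. After Id3 the values were small, from 0.26 with aPD-1 and 0.29 with IgG for Fos to 0.21 with aPD-1 and 0.28 with IgG for Smad7, the inhibitory SMAD. The 5 most like Id3 were Id1, Junb, Ier2, Rgs3 and Fos, at 0.29 or more with aPD-1 and 0.28 or more with IgG. The 5 most like Bmpr1a (Scd2, Ktn1, Dag1, Col6a1, Senp6) and Bmpr2 (Sept2, Sptbn1, Col6a2, Malat1, Rnf11) reached no more than 0.14.

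Immediate early genes, which are switched on within minutes by growth factors, stress and tissue dissociation, were among the genes most like Id1 and Id3 across cells and were also lower in sum with aPD-1. The list of 19 summed to 7149 CPM with aPD-1 and 8880 CPM with IgG (ratio 0.805), and 14 of its 16 genes of at least 10 CPM had a ratio under 1, as did 67.1% of all 6967 genes. Of the 16, 3 were 1.5-fold lower, beside 3.01% of all genes, and their median log2 ratio was -0.31, beside -0.10 over all genes. Id1 was therefore also read in 4 equal bins of all cells ordered by this list, set after the data were seen. In the lowest bin Id1 was at 19.7 CPM with aPD-1 and 31.9 CPM with IgG, and in the highest at 106.8 CPM with aPD-1 and 162.5 CPM with IgG. Its ratios over the bins from low to high were 0.618, 0.530, 0.455 and 0.657. Those of Id3 were 0.434, 0.626, 0.624 and 0.873. Weighting the bins alike in both libraries gave a ratio of 0.580 for Id1 and 0.743 for Id3, which is no longer 1.5-fold.

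**Figure D5:**
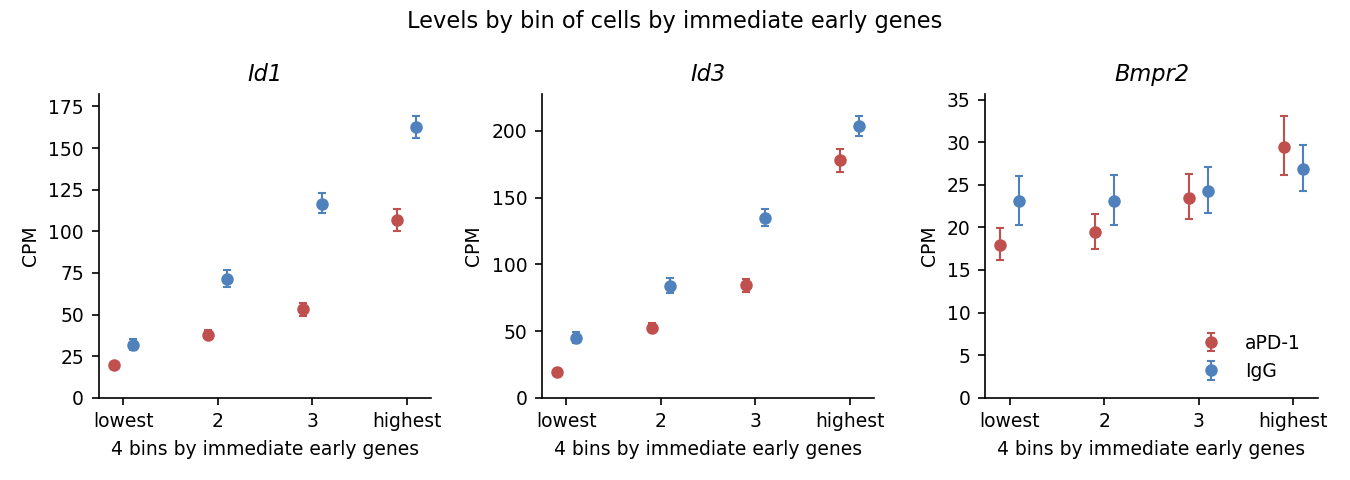
CPM of Id1, Id3 and Bmpr2 in 4 equal bins of all cells ordered by UMIs of 19 immediate early genes per 10000, lowest bin at the left, aPD-1 (red) left of IgG (blue), with exact Poisson 95% intervals. Id1 climbs over the bins, to 106.8 CPM with aPD-1 and 162.5 CPM with IgG, and lies lower with aPD-1 in all 4, while Id3 comes close in the highest bin (177.8 CPM with aPD-1, 203.6 CPM with IgG).

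Ribosomal protein genes took 38.2% of aPD-1 UMIs and 34.5% of IgG UMIs, and over cells Id1 had an r of -0.17 with aPD-1 and -0.12 with IgG with that share. Weighted alike over 4 bins of that share the ratio was 0.572 for Id1 and 0.723 for Id3. Weighted alike over the clusters it was 0.519 for Id1 and 0.700 for Id3. Id1 was thus 1.5-fold lower with aPD-1 under all 16 ways of summing that were run, from 0.415 to 0.580, and Id3 under 13 of 16, from 0.494 to 0.743. Whether the fibroblast, immediate early or ribosomal differences have a part in the Id difference beyond these values was not tested.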

How the data were processed

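The deposited values are raw UMI counts for each gene and barcode. Per the file headers Cell Ranger 3.0.2 wrote them, and the submitters' processing notes also list Seurat 2.1.0 and the build mm10, with no gene annotation named. Since the aPD-1 matrix held 737280 barcodes and the IgG matrix only 4351, the shallowest of 500 UMIs, one floor of 5000 UMIs and at most 10% mitochondrial UMIs was set in both. No doublet caller was run and no doublet removed.

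Counts were summed per library and given as CPM with exact Poisson intervals. Ratios of aPD-1 over IgG carry no pseudocount and an exact conditional binomial interval, log2 ratios a pseudocount of 1 CPM, which understates low genes, and shares an exact Clopper-Pearson interval. UMIs mark 3′ ends and are not scaled per length, so levels of different genes are not compared. Cells were clustered in scanpy 1.11.5 without integration (2000 variable genes, 30 components, 15 neighbours, leidenalg 0.10.2 at resolution 0.5, with the pathway genes left out). Clusters were called by their leading genes, and a cell type name was given only from listed markers. Genes named are the 8 members, up to 4 of each pathway list with the most extreme ratio from 10 CPM, listed genes under 10 CPM by their UMIs alone (with CPM and a ratio for Grem1, singled out after its values were seen), and for each member those most like it over cells, of which 1 is not reported here. Members and lists were chosen with earlier results of these data known. Of 70 listed symbols, Hjv did not match. The steps were tested on simulated counts at these depths. Alternatives covered cell filters, scaling, clustering, thinning and left-out cells. Antisense or overlapping genes were not examined.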

Additional observations from a re-analysis of the deposited data

Results flagged for a closer look

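The aPD-1 matrix also holds 89441 barcodes of 10 to 100 UMIs, outside the comparison, with 3335604 UMIs in all, which in droplet data are mostly free RNA. Of the 8 genes, 6 were found there above the 0.899 CPM that a count of 0 allows: Id1 at 46.2 CPM, Id3 at 46.8 CPM, Bmpr1a at 13.5 CPM, Bmpr2 at 10.5 CPM, Bambi at 10.2 CPM and Id2 at 8.09 CPM. In the same library's cells Id1 was at 46.0 CPM, Id3 at 68.1 CPM, Bmpr1a at 23.9 CPM, Bmpr2 at 21.4 CPM, Bambi at 8.70 CPM and Id2 at 3.63 CPM. Id2 was thus higher in the barcodes of 10 to 100 UMIs (interval 5.33 to 11.8 CPM) than in the cells (interval 3.17 to 4.14 CPM). For Bambi the intervals overlapped (7.06 to 14.2 CPM and 7.98 to 9.47 CPM). Smad6 and Bmp4 had 0 UMIs in these barcodes. The IgG matrix holds no such barcodes to set beside them, and their part in the counts per cell was not tested.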

How the results depend on the processing

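No paired analysis was possible because each antibody has 1 library and the labels number no replicates. Depth limits Bmp4, Smad6 and Id2, and the lack of replicates limits every difference. Over 16 settings the ratios of Id1, Id2, Id3, Bmpr2 and Bambi stayed below 1. Causes of the shifts below were not tested. The settings that weight bins of cells or leave out the endothelial-like cluster were chosen after seeing the data.

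Ratios of Id1 were 0.435 (floor of 10000 UMIs), 0.434 (without the cluster highest in fibroblast markers), 0.519 (clusters weighted by IgG share), 0.481 (thinned to 5000 UMIs), 0.490 (total without ribosomal and mitochondrial genes), 0.490 (divided by the median of all genes), 0.580 (immediate early bins), 0.415 (depth bins) and 0.572 (ribosomal bins). In that order without thinning, Id3 gave 0.528, 0.530, 0.700, 0.593, 0.593, 0.743, 0.494 and 0.723. Id2 moved to 0.647 (clusters), 0.620 (immediate early) and 0.657 (ribosomal), Bmpr2 to 0.957 (immediate early) and 0.794 (depth) and Bmpr1a to 1.11 (ribosomal). Thinning gave 2.62 for Smad6 and 0.664 for Bambi. Bmp4, on 7 UMIs, turned from 0.134 to 1.05 with clusters weighted.

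Members 1.5-fold lower numbered 1 in place of 2 when clusters, immediate early or ribosomal bins were weighted, and 4 with no filter on low values. Pathway genes 1.5-fold lower numbered 2 in place of 4 in the same 3 settings and 17 with no filter. Pathway genes 1.5-fold higher numbered 0 in place of 1 with at most 5% mitochondrial UMIs, clusters weighted, depth bins or the interval beyond 1.5-fold, 2 without ribosomal and mitochondrial genes or from 5 CPM, and 7 with no filter.

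The highest within-cluster ratio of Id1 was 0.803 at resolution 1.0 and 0.777 with the pathway genes in the clustering, and that of Id3 was 1.004 and 1.03. The lowest of Id3 was 0.507 with them. For Id1 with Id3, Spearman's rho was 0.30 with aPD-1 and 0.42 with IgG, thinned r was 0.25 with aPD-1 and 0.36 with IgG, and r with cluster means taken off was 0.33 with aPD-1 and 0.47 with IgG.

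Unthinned shares of cells with a UMI were 32.2% with aPD-1 and 53.2% with IgG for Id1, 4.98% with aPD-1 and 10.7% with IgG for Id2, 35.5% with aPD-1 and 55.0% with IgG for Id3, 34.1% with aPD-1 and 39.5% with IgG for Bmpr1a, 30.7% with aPD-1 and 39.8% with IgG for Bmpr2, and 12.4% with aPD-1 and 16.9% with IgG for Bambi. Thinned to 2000 UMIs they were 8.37% with aPD-1 and 15.3% with IgG for Id1, 0.715% with aPD-1 and 1.73% with IgG for Id2, 10.3% with aPD-1 and 19.9% with IgG for Id3, 4.86% with aPD-1 and 5.41% with IgG for Bmpr1a, 5.04% with aPD-1 and 5.14% with IgG for Bmpr2, and 1.19% with aPD-1 and 2.68% with IgG for Bambi. For Bmpr1a the intervals of the libraries overlapped at 2000 UMIs (4.2 to 5.6% with aPD-1, 4.5 to 6.4% with IgG). They also overlapped at 5000 UMIs, so no direction is read from its thinned shares. The unthinned shares are not matched for depth, which was lower with aPD-1. Of 146 other values, 65 stayed within their spread and 81 moved, with 0 reversed.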

Other observations

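Barcodes of at least 5000 UMIs with over 10% and at most 50% mitochondrial UMIs were left out of the comparison. In the 81 aPD-1 and 89 IgG barcodes of this kind Id1 was at 63.6 CPM with aPD-1 (interval 45.0 to 87.3) and 86.6 CPM with IgG (67.4 to 109.6), whose intervals overlap. Id3 was at 56.9 CPM with aPD-1 (39.4 to 79.5) and 144.3 CPM with IgG (119.1 to 173.2), whose intervals do not. Bmpr1a was at 35.1 CPM with aPD-1 and 32.6 CPM with IgG.

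Id2 stood out in macrophage-marker barcodes. In 128 IgG barcodes of at least 1000 UMIs with UMIs of 3 or more macrophage markers, Id2 was at 205.5 CPM on 68 UMIs (interval 159.6 to 260.6), beside 7.33 CPM in the IgG cells compared above, Id1 was at 90.7 CPM and Id3 at 57.4 CPM, and Bmpr1a had 1 UMI. The aPD-1 library had 6 such barcodes, with 1 UMI each of Id1, Id2 and Id3.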
